A study of Mus musculus with 3 samples.

Results

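Kinesins, cytoplasmic dyneins and the dynactin complex are the proteins that carry cargo along microtubules. They were described here in cultured mouse hippocampal neurons through 61 gene rows out of 47593. A row was a member when its symbol was a numbered Kif gene with an optional letter from a to c, a numbered Kifc gene, a kinesin light chain (Klc), a chain of cytoplasmic dynein 1 or 2 (Dync1, Dync2), a light chain of the Dynll or Dynlrb kind, or a numbered dynactin subunit (Dctn). Partners with other symbols, such as Kifap3, Cenpe and the Dynlt chains, lie outside this rule and are given as neighbours in the pathway. The cells were wild-type primary neurons. Their base medium was Neurobasal, to which 10% B27 and also 1% GlutaMAX had been added, and the incubator was set to 37 °C and 5% CO2. All 3 libraries belonged to 1 group, given fresh medium with B27 and penicillin-streptomycin, for which the design text states 24 h. The labels do not say whether the libraries came from different dishes or mice, so p-values measure the spread of these samples, which may be technical. Libraries of other treatments were not analysed here.

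Kinesins walk mostly toward the plus ends of microtubules, which point away from the cell body in axons, and so carry vesicles, mitochondria and other cargo outward. Cytoplasmic dynein 1, switched on by dynactin, walks toward minus ends and brings signalling endosomes and worn organelles back. A further set of kinesins builds the spindle and splits the daughter cells during division, and dynein 2 works with kinesin-2 inside cilia.

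The authors deposited log2 values in which differences between libraries are pulled toward 0 for low genes, and whole reads were recovered from them. The libraries held 18683950 to 18885652 recovered reads. Levels below are in CPM (counts per 1000000 recovered reads), given for replicates 1, 2 and 3 in that order or as mean ± SD (n = 3). Detection meant 1 CPM or more in every library on the deposited scale, which 55 members reached, as did 29.4% of all gene rows and 59% of protein-coding genes. The 61 members had a median level of 47.1 CPM, against 27.8 CPM for the detected genes as a whole, and together took 0.909% of all reads. In bulk RNA, fewer cells of a type and less RNA per cell cannot be told apart. All 5 markers of neurons, of astrocytes, of neural progenitors and of the oligodendrocyte lineage were detected, with summed levels of 2783 to 2835, 1350 to 1382, 773 to 820 and 268 to 286 CPM over the libraries. Within the astrocyte, progenitor and oligodendrocyte lists the highest genes were Slc1a3, Fabp7 and Olig1, at 980, 622 and 159 CPM. The lowest were S100b, Hes5 and Sox10, at 2.55, 3.74 and 2.89 CPM. None of 5 microglial markers was detected, at a summed 1.92 to 3.34 CPM. The part of glial cells in the levels below was not tested.

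**Figure D1:**
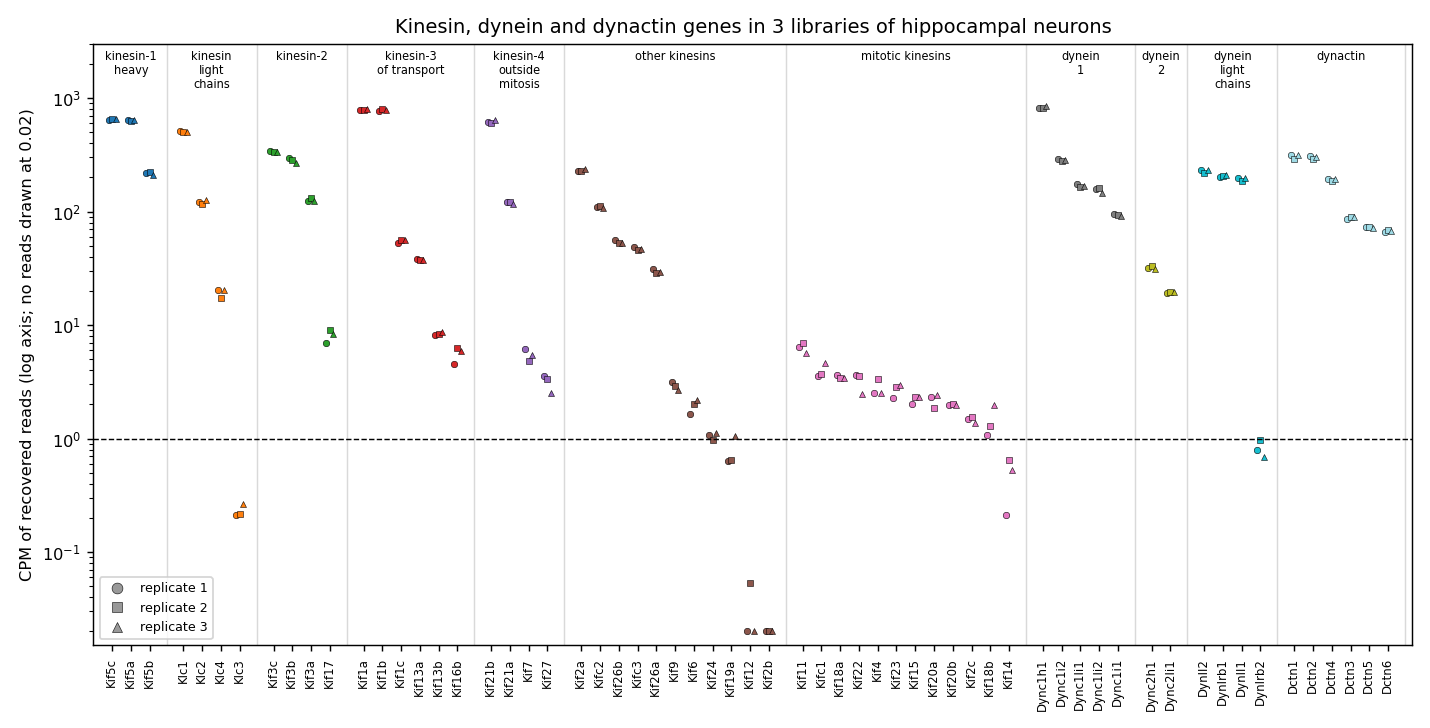
Level of each of the 61 members in each library, in CPM of recovered reads on a log axis, grouped by role; symbols mark replicates 1 to 3, genes without reads are drawn at 0.02, and the dashed line is 1 CPM. The mitotic kinesins lie between 0.46 and 6.36 CPM, and 11 of the 28 kinesin motors outside mitosis also lie below 10 CPM, while the highest member reaches 832 CPM.

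Of 24 members at 100 CPM or more, 12 were kinesin motors outside mitosis, 2 kinesin light chains, 7 dynein chains and 3 dynactin subunits. Reads count longer transcripts more often, so genes are set against each other below per kilobase of annotated exon. All 12 mitotic kinesins lay below 10 CPM, as did 11 of the 28 kinesin motors outside mitosis, Klc3 and Dynlrb2. The 28 include Kif2b, which is also known from the spindle and had no reads. They also include Kif2a, of the same family as the mitotic Kif2c, at 231 CPM, so the division depends on how this family is grouped. The sequences just around the transcription start are described first.

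Promoter windows from RefSeq, on GRCm38.p6 and running from 250 bases before to 50 bases after each annotated start, were matched by symbol for 47 of 61 members. They were searched on both strands for CCAAT, the box bound by NF-Y, and for TTTGAA, the core of the cell cycle genes homology region found in many genes that are switched on in G2 and mitosis. TTTGAA lay in 10 of 11 windows of mitotic kinesins (90.9%) and in 4 of 43 windows of the other members (9.3%), against 17.9% of all 32851 windows. Within 25 bases of the start it lay in 8 of the 11 mitotic windows (72.7%) and in 1 of the 43 others, that of Kif26b, against 2.46% of all windows. CCAAT lay in 7 of the 11 mitotic windows (63.6%) and in 16 of the 43 others (37.2%), against 37.4% of all. The window of Kif2b, counted with the others, held CCAAT but not TTTGAA. The windows of Kif2a, also counted with the others, held neither. The GC box GGGCGG lay in 54.5% of the mitotic windows and 67.4% of the others, against 35.7% of all, and TATAAA in 9.09% and 9.3%, against 13.6% of all. Median GC content was 60.7% in the mitotic windows and 62.0% in the others, against 52.7% in all, so all windows are not a baseline matched for GC. The 43 windows of other members came from 36 genes. No CCAAT match overlapped a TTTGAA match in the windows of members. A match describes letters and does not show that a factor binds there. The groups were formed with the levels known and the 25-base limit was set after the positions were seen, so no test was made.

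The 8 mitotic windows with TTTGAA near the start are shown so that the element can be read in place. They were picked for carrying it, and the windows of Kif14, Kif18a and Kif2c lack it there. The windows of Kif14 and Kif2c, like those of Dctn1, Dync2h1, Kif17, Kif27 and Kif4, lie inside the annotated gene and so describe an internal start. The Kif4 window is among those shown. Each covers 75 bases before the start and 25 from the start on, 5′ to 3′ on the gene's strand, with complete CCAAT and TTTGAA matches on either strand in capitals (ATTGG and TTCAAA are their reverse complements). Plus-strand windows are Kif11 at chr19:37376307-37376406, Kif15 at chr9:122951006-122951105, Kif20b at chr19:34922283-34922382 and Kif4 at chrX:100625990-100626089. Minus-strand windows are Kif18b at chr11:102925100-102925199, Kif22 at chr7:127042396-127042495, Kif23 at chr9:61946775-61946874 and Kifc1 at chr17:33890609-33890708.
Kif11: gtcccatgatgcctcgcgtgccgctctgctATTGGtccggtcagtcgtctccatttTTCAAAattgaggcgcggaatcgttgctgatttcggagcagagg
Kif15: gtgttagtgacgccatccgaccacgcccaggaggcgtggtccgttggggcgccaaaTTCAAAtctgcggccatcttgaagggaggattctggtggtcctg
Kif18b: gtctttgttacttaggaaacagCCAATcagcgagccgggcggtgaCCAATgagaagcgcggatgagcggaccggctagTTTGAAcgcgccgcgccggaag
Kif20b: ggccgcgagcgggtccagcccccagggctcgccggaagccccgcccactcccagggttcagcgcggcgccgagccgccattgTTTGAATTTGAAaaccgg
Kif22: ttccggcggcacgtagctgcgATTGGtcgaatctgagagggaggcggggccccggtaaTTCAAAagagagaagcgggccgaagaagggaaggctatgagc
Kif23: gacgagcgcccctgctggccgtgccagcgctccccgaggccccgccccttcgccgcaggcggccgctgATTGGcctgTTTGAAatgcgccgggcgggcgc
Kif4: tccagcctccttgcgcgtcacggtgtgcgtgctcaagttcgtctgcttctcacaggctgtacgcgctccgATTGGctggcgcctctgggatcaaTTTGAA
Kifc1: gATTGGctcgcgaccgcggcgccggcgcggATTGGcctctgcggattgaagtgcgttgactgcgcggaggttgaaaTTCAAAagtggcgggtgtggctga

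With the start counted as 0, the matches shown begin between 19 bases before it (Kif11 and Kif15) and 19 bases after it (Kif4), and Kif20b holds the element as a direct repeat. In Kif11, Kif18b, Kif22, Kif23, Kif4 and Kifc1 a CCAAT box lies upstream of it inside the same 100 bases. The same stretch is shown for the 4 members of highest level that had a window, taking the most upstream one where a gene had several. These are Dync1h1 at chr12:110601320-110601419 and Kif5c at chr2:49619211-49619310 on the plus strand, and Kif1a at chr1:93101850-93101949 and Kif1b at chr4:149307709-149307808 on the minus strand.
Dync1h1: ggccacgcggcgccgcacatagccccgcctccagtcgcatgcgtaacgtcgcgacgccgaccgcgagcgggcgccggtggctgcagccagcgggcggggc
Kif1a: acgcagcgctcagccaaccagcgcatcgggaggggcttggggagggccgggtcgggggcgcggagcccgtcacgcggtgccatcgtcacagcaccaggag
Kif1b: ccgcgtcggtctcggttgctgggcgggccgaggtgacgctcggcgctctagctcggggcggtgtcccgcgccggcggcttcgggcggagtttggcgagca
Kif5c: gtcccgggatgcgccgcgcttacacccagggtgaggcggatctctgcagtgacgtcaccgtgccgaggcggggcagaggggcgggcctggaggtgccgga

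None of these 4 stretches holds either motif. A second Kif1a window further downstream holds TTTGAA at 44 bases before its start, and the Kif1b windows hold CCAAT further upstream than the stretch shown.

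**Figure D2:**
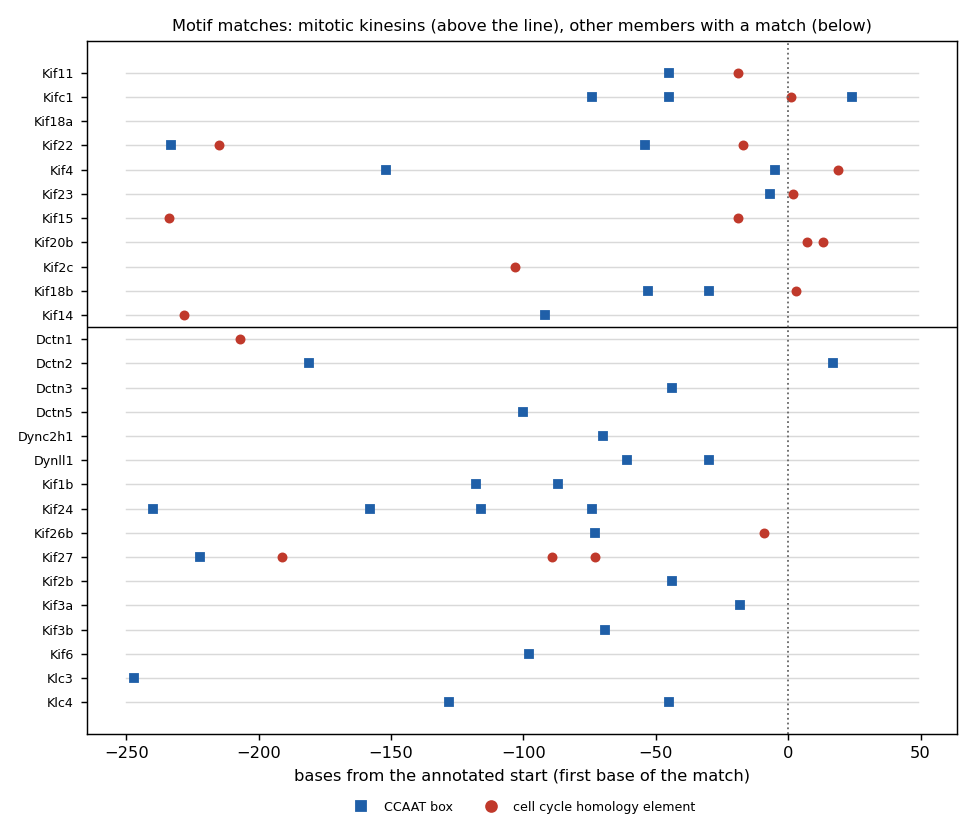
Positions of CCAAT (squares) and TTTGAA (circles) in the most upstream promoter window of each gene, in bases from the annotated start; 11 mitotic kinesins stand above the line and other members with a match below it. In 8 of the 11 mitotic kinesins a circle lies within 25 bases of the start.

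Kinesin-1, the classic motor of fast axonal transport, is a pair of heavy chains (Kif5a, Kif5b or Kif5c) with light chains that bind cargo. Kif5c had 640, 655 and 652 CPM and Kif5a 639, 628 and 643 CPM. The ubiquitous heavy chain gene Kif5b had 221, 222 and 208 CPM. Of the reads on the 3 genes, Kif5c took 43.2 ± 0.47%, Kif5a 42.4 ± 0.57% and Kif5b 14.4 ± 0.52% (SD, n = 3).

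Per kilobase of exon, Kif5c and Kif5a could not be told apart, with a log2 ratio of −0.0026 ± 0.02 whose sign differed between libraries. Kif5c exceeded Kif5b by 1.74 ± 0.03, a 3.34-fold ratio, and Kif5b over Kif5a was −1.74 ± 0.04. Ratios of this kind are log2 differences within a library on the deposited scale, with 0.5 CPM added to each level, as mean ± SD (n = 3). Since the deposited scale narrows the spread between libraries, each was also set against its SD in recovered reads, which was 0.03 to 0.07 for the 3 Kif5 ratios.

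Among kinesin light chains, Klc1 was highest at 517, 506 and 503 CPM, and Klc2 had 122, 117 and 126 CPM. Klc1 exceeded Klc2 by 2.08 ± 0.03 log2 units per kilobase of exon. Klc4 reached 20.4, 17.2 and 20.5 CPM and lay below Klc2 at −1.82 ± 0.01 per kilobase of exon, with an SD of 0.10 in recovered reads. Per kilobase of coding sequence, and also without length scaling, that ratio was −2.62. Klc3, which is known from the testis, had 4, 4 and 5 reads and was not detected. Reads of Klc3 are uncertain because exons of Ercc2 on the other strand cover 28.1% of its exon length, and no source used here says that strand was kept.

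Kinesin-3 motors carry synaptic vesicle precursors and dense core vesicles. Kif1a had 788, 789 and 795 CPM, the most reads of any kinesin, though per kilobase of exon its 84.7 ± 0.38 CPM lay below Kif5c (90.9 ± 1.17 CPM). Kif1b, whose isoforms move mitochondria and synaptic vesicle precursors, had 764, 796 and 790 CPM. On the CPM scale the SDs of this pair overlapped. Per kilobase of exon Kif1a lay higher by 0.93 ± 0.02 log2 units. The annotated exons of Kif1b sum to 17608 bases and those of Kif1a to 9330. Per kilobase of coding sequence, which is 5448 bases for Kif1b and 5373 for Kif1a, the ratio was 0.033, about as large as its SD of 0.029 in recovered reads. Kif1c, more widely expressed, had 52.7, 56.1 and 56.6 CPM.

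The endosomal kinesin-3 genes were lower and unequal. Kif13a had 38.3, 37.8 and 37.7 CPM and exceeded Kif13b (8.25, 8.40 and 8.68 CPM) by 2.79 ± 0.0043 log2 units, with an SD of 0.05 in recovered reads, and by 2.18 per kilobase of coding sequence. Kif16b, a motor of early endosomes, had 4.58, 6.26 and 5.93 CPM.

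Kinesin-2 is a heterotrimer of Kif3a with Kif3b or Kif3c and the adaptor Kifap3, and it also drives outward transport in cilia. Kif3c had 339, 338 and 334 CPM, Kif3b 297, 283 and 270 CPM and Kif3a 124, 133 and 123 CPM. Kif3a, the partner shared by both forms, was also the lowest of the 3 per kilobase of exon, at 35.2 ± 1.54 CPM, against 50.3 ± 2.40 for Kif3b and 45.5 ± 0.33 for Kif3c. Kif3a over Kif3b was −0.51 ± 0.04 log2 units per kilobase of exon and −1.12 per kilobase of coding sequence, against an SD of 0.09 in recovered reads. Kif3c over Kif3b was −0.14 ± 0.03 per kilobase of exon but 0.16 per kilobase of coding sequence and 0.25 without length scaling, so their order depends on the length used. Exons of genes on the other strand cover 40.7% of the exon length of Kif3c. One of these, 1110002L01Rik, had 6.32 ± 0.26 CPM. The adaptor Kifap3 stood at 389 ± 9.92 CPM. Kif17, a homodimer known for carrying NMDA receptors in dendrites, had 6.98, 9.05 and 8.31 CPM and lay below Kif3a at −4.23 ± 0.02 (SD 0.14 in recovered reads).

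Kinesin-4 motors outside mitosis slow the growth of microtubules or act in Hedgehog signalling. Kif21b, a neuronal motor of dendrites and axons, had 617, 607 and 647 CPM and Kif21a, linked to congenital fibrosis of the eye muscles in humans, 120, 122 and 116 CPM. Kif21a over Kif21b was −1.46 ± 0.04 per kilobase of exon, −2.40 per kilobase of coding sequence and −2.38 without length scaling, with an SD of 0.08 in recovered reads. The ciliary Hedgehog regulator Kif7 had 6.18, 4.87 and 5.45 CPM and its relative Kif27 3.57, 3.37 and 2.54 CPM. Exons of other genes on the opposite strand cover 20.3% of the exon length of Kif7.

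Among the remaining kinesins outside mitosis, Kif2a, a depolymerase that trims axon branches, had 230, 226 and 237 CPM. Exons of Dimt1 (25.3 ± 1.68 CPM) on the opposite strand cover 19.2% of its exon length. The mitotic depolymerase gene Kif2c, of the same family, had 28, 29 and 26 reads. With 0.5 CPM added to each level, Kif2a exceeded Kif2c by 6.32 ± 0.02 log2 units per kilobase of exon, an 80.1-fold ratio. Its SD was 0.10 in recovered reads. Because Kif2c was so low, the size of this ratio depends on the CPM added, and it was 4.64 with 5 CPM added. With nothing added, the levels per kilobase of exon were 36.1 CPM for Kif2a and 0.338 CPM for Kif2c. The third depolymerase gene Kif2b, grouped here with the kinesins outside mitosis although it is also known from the spindle, had no reads. That bounds it below about 0.16 CPM (3 reads) in a library, for counting error only.

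Minus-end directed kinesins were also present. Kifc2, a neuronal one, had 109, 112 and 106 CPM and exceeded Kifc3 (48.8, 45.8 and 46.9 CPM) by 1.63 ± 0.02 log2 units, with an SD of 0.07 in recovered reads. Exons of other genes on the opposite strand cover 27.5% of the exon length of Kifc3. Kif26b and Kif26a, which are taken to lack normal motor activity, stood at 53.7 ± 1.76 and 29.8 ± 1.03 CPM. Kif9 (2.91 ± 0.22 CPM) and Kif6 (1.95 ± 0.27 CPM), both of motile cilia, were detected.

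Detection of the lowest members turned on few reads. Just inside the threshold lay Kif2c (1.47 ± 0.09 CPM), Kif18b (1.44 ± 0.47 CPM) and Kif24 (1.05 ± 0.08 CPM), the last with 20, 18 and 21 reads and below 1 CPM in replicate 2 by recovered reads. Just outside lay Dynlrb2 (0.82 ± 0.14 CPM), Kif19a (0.78 ± 0.24 CPM) and Kif14 (0.46 ± 0.22 CPM). Kif12 had 1 read in all. Of Kif24, 5.03% of 50-base stretches also occur in transcripts of other genes.

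Of the 12 genes grouped as mitotic kinesins, 11 were detected, all at low level. Kif2a and Kif2b were not among these 12. Kif11, the spindle motor Eg5, was highest with 6.44, 6.90 and 5.72 CPM, followed by Kifc1 with 3.57, 3.69 and 4.61 CPM, Kif18a with 3.62, 3.43 and 3.44 CPM and Kif22 with 3.62, 3.53 and 2.49 CPM. Kif4, Kif23 (a motor of the central spindle), Kif15, Kif20a, Kif20b, Kif2c and Kif18b followed between 2.81 and 1.44 CPM. Kif14, a motor of cytokinesis, was not detected, with 4, 12 and 10 reads. The 12 genes summed to 31.1, 33.5 and 32.4 CPM, and their median was 2.46 CPM.

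Of 11 markers of proliferating cells, 10 were detected, at a summed 124, 120 and 122 CPM. Most of that sum was Pcna, a DNA replication and repair gene, at 81.6 ± 2.27 CPM. Top2a followed at 11.8 ± 1.18, Mki67 at 6.16 ± 0.54 and the centromere kinesin gene Cenpe at 4.08 ± 0.22 CPM, and Aurkb was not detected with 54 reads in all. Neural progenitor genes were led by Fabp7 at 622 ± 22.9 and Sox2 at 98.1 ± 5.09 CPM. The part of dividing cells in the mitotic kinesin levels was not tested. Kifc1 is uncertain because 39.7% of its 50-base stretches also occur in other genes, chiefly Kifc5b, which had 2.47 ± 0.52 CPM. Reads of Kif20a and Kif4 are uncertain too, since Cdc23 covers 29.3% of the exon length of Kif20a, and Pdzd11 15.1% of that of Kif4, from the opposite strand.

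Cytoplasmic dynein 1 is built on a heavy chain dimer with intermediate, light intermediate and light chains. The heavy chain gene Dync1h1 took the most reads of all members, at 821, 823 and 851 CPM. Per kilobase of exon it had 53.1 ± 1.06 CPM, less than Kif5c or Klc1 (125 ± 1.88), and the highest member on that scale was the light chain gene Dynlrb1 at 203 ± 4.42 CPM. The heavy chain gene of dynein 2, Dync2h1, had 32.1, 33.2 and 31.0 CPM, and Dync1h1 exceeded it by 4.74 ± 0.03 log2 units, a 26.7-fold ratio (SD 0.08 in recovered reads). Dync2li1, the light intermediate chain of dynein 2, had 19.1, 19.6 and 19.4 CPM.

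The intermediate chains tie dynein to dynactin. Dync1i2, the ubiquitous one, had 289, 281 and 283 CPM and Dync1i1, the more neuronal one, 95.6, 92.6 and 91.1 CPM. Dync1i1 over Dync1i2 was −0.39 ± 0.0092 per kilobase of exon and −1.62 per kilobase of coding sequence. Dync1i2 has 8280 annotated exon bases for a coding sequence of 1914. Light intermediate chains, which bind the activating adaptors, were close to each other in reads, with 175, 164 and 167 CPM for Dync1li1 and 158, 161 and 147 CPM for Dync1li2. Per kilobase of exon Dync1li1 lay higher by 0.76 ± 0.04 log2 units, whereas per kilobase of coding sequence the ratio was 0.03 with an SD of 0.08 in recovered reads.

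Dynll2 had 234, 217 and 234 CPM and Dynll1 196, 184 and 197 CPM, on coding sequences of 267 bases each. Dynll1 over Dynll2 was −0.76 ± 0.0071 per kilobase of exon and −0.25 per kilobase of coding sequence, with the same sign in 3 of 3 libraries. Both proteins are also subunits of myosin V and partners of many proteins outside dynein. Dynlrb1, the roadblock light chain, had 200, 206 and 209 CPM, and Dynlrb2 had 15, 18 and 13 reads. Per kilobase of exon Dynlrb1 exceeded Dynlrb2 by 6.43 ± 0.02 log2 units, an 86.0-fold ratio, with an SD of 0.16 in recovered reads. Because Dynlrb2 was so low, the size of this ratio depends on the CPM added to each level. It was 5.97 with 1 CPM added and 4.31 with 5 CPM added. With nothing added, the levels per kilobase of exon were 203 and 1.47 CPM. Per kilobase of coding sequence that ratio was 7.17, and without length scaling 7.29. Of Dynll1, 3.1% of 50-base stretches also occur in transcripts of other genes.

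Dynactin was detected in full, with all 6 Dctn genes between 67.4 and 306 CPM. Dctn1, the p150Glued subunit that grips microtubules and dynein, had 315, 289 and 313 CPM and Dctn2, the dynamitin subunit, 306, 291 and 301 CPM. Dctn1 over Dctn2 was −0.41 ± 0.02 per kilobase of exon, −1.64 per kilobase of coding sequence and 0.03 without length scaling. Its SD in recovered reads was 0.04. Dctn4 stood at 190 ± 4.69 CPM, and Dctn3, Dctn5 and Dctn6 at 88.6 ± 1.88, 72.5 ± 0.47 and 67.4 ± 1.39 CPM. Dync1h1 over Dctn1 was 0.18 ± 0.04 per kilobase of exon, −0.41 per kilobase of coding sequence and 1.44 without length scaling, so that the order of heavy chain and p150Glued depends on the length used.

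**Figure D3:**
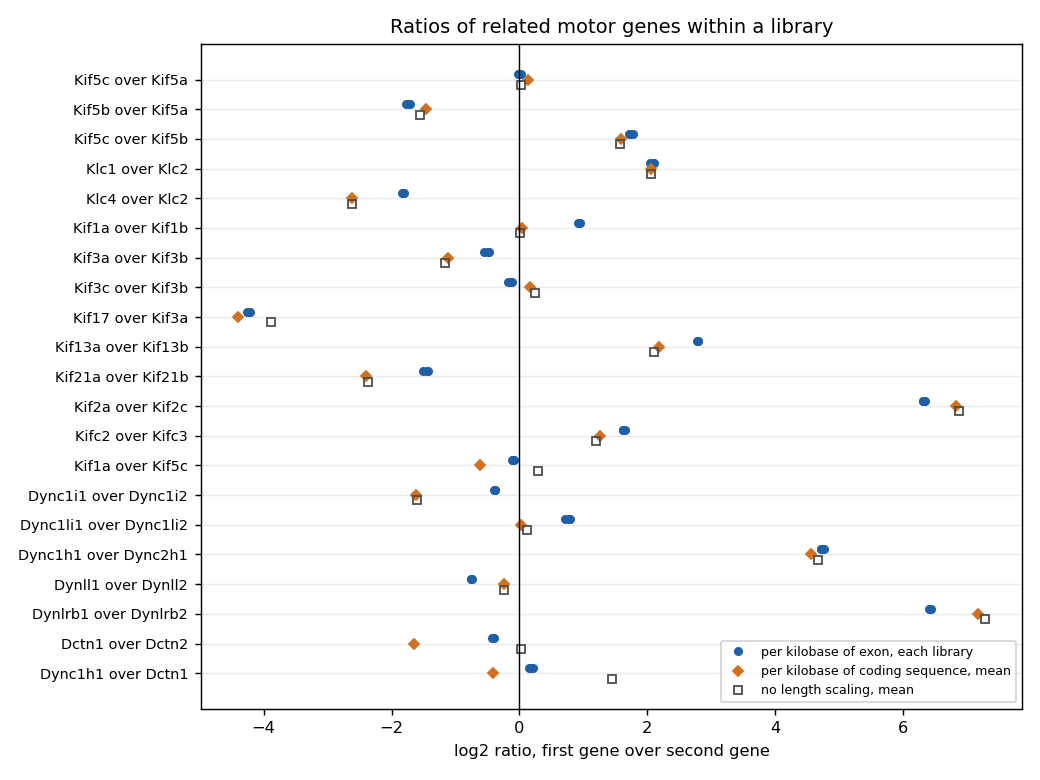
Log2 ratio of the first over the second gene for 21 pairs of related members; dots are the 3 libraries per kilobase of exon, diamonds the mean per kilobase of coding sequence and open squares the mean without length scaling. The dots of a pair lie close together on the deposited scale, which narrows the spread between libraries. For Dynlrb1 over Dynlrb2 the SD was 0.02 on that scale and 0.16 in recovered reads. The length used moves several pairs across 0.

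Of 21 pairs, the first gene was higher in every library in 10 and the second in 10, and the sign differed between libraries for Kif5c over Kif5a alone. Each of the other 20 ratios was larger than its SD in recovered reads. For these 20 the exact permutation test over signs (two-sided) gave p = 0.25, which is the smallest value open to 3 libraries, so none could pass 0.05. The sign of the mean ratio was the same per kilobase of exon, per kilobase of coding sequence and without length scaling for 16 of 21 pairs. Among these 16, Kif1a over Kif1b was 0.013 without length scaling, below its SD of 0.029 in recovered reads. Dync1li1 over Dync1li2 was 0.03 per kilobase of coding sequence, below its SD of 0.08.

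Of all reads on members, kinesin motors outside mitosis took 56.9 ± 0.37%, dynein chains 24.3 ± 0.14%, dynactin 11.3 ± 0.20%, kinesin light chains 7.15 ± 0.08% and mitotic kinesins 0.356 ± 0.01% (SD, n = 3). Per kilobase of exon the kinesin motors outside mitosis held 39.9% and dynein 33.3%. Per kilobase of coding sequence, a scale added after the data were seen, they held 27.4% and 50.01%. Highest on that scale were Dynll2 (856 ± 37.5 CPM), Dynll1 (720 ± 25.9) and Dynlrb1 (657 ± 14.3), against 59.7 ± 1.19 for Dync1h1. The coding sequences of these light chain genes have 267, 267 and 312 bases, and all exon reads are divided by that length.

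**Figure D4:**
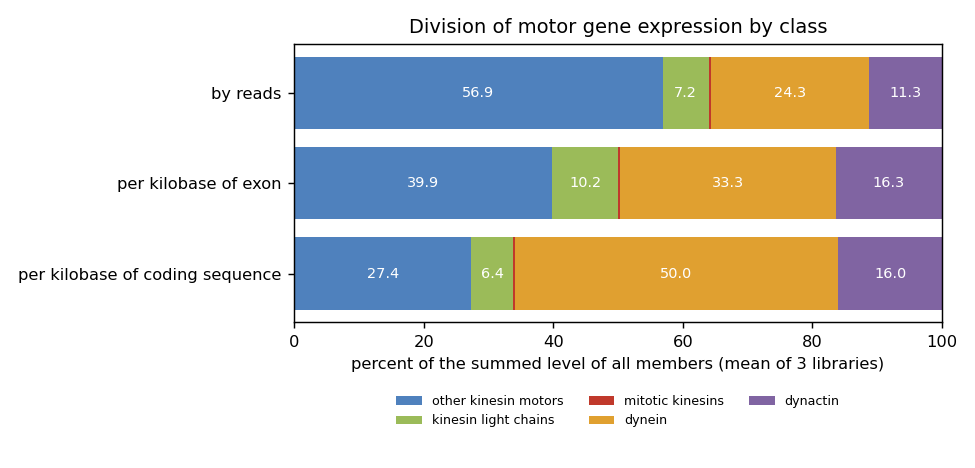
Share of the summed level of all 61 members held by each class, in percent as the mean of 3 libraries, by reads, per kilobase of exon and per kilobase of coding sequence. Mitotic kinesins form the thin red line, at 0.356% by reads, on every scale under 1% of the sum.

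Genes that work with the motors were mostly detected, as were 59% of all protein-coding genes, and their lists were chosen with earlier results known. All 20 cargo adaptors of kinesin were detected, led by Kidins220 (690 ± 19.3 CPM), Clstn1 (679 ± 44.2 CPM), which binds kinesin light chains, and Kifap3. The mitochondrial adaptors Trak1 and Trak2 stood at 102 ± 7.08 and 89.3 ± 2.95 CPM. Of 21 dynein adaptors and regulators, 19 were detected, led by Pafah1b1 (608 ± 23.3 CPM), the lissencephaly gene Lis1, by Actr1a (315 ± 8.05 CPM), which forms the dynactin filament, and by Mapre1 (313 ± 7.10 CPM). Spdl1, the mitotic dynein adaptor Spindly, and Rilp were not detected, with 27 and 24 reads. All 8 other dynein chains were detected, led by Dynlt3 at 142 ± 9.11 CPM, Wdr34 at 46.0 ± 3.24 CPM and Tctex1d2 at 11.6 ± 0.83 CPM. The Dynlt1 genes are near-identical copies whose reads could be split or lost.

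The libraries were compared to see whether any motor differed within the single group. A chi-square statistic was computed for the 15131 genes that averaged at least 10 recovered reads, with Benjamini-Hochberg adjustment over all of them. Of the members 57 entered, and Kif14, Klc3, Kif12 and Kif2b had too few reads. Beyond counting error, 7 of these members varied (adjusted p below 0.05), as did 8.62% of all genes tested. All 7 were among the 30 members with a mean of 1000 reads or more, where 22.1% of all such genes were called. They were Kif21b (adjusted p = 2.15e-05), Dctn1 (0.000235), Kif3b (0.00135), Kif1b (0.00167), Dync1h1 (0.0046), Dynll2 (0.00921) and Dync1li2 (0.0367).

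The differences behind these calls were small. Between the highest and lowest library, after scaling by size factors, they ranged from 1.05-fold for Dync1h1 to 1.09-fold for Dync1li2. In CPM, replicate 2 was lowest for Dctn1, Dynll2 and Kif21b, replicate 3 for Kif3b and Dync1li2, and replicate 1 for Kif1b and Dync1h1. Over all tested members, replicates 1, 2 and 3 were lowest for 21, 18 and 18, where they were lowest for 30.9%, 37% and 32.1% of all genes tested. Against the dispersion trend of all genes, 0 members varied and 0 had an unadjusted p below 0.05, where 0.317% and 6.17% of all genes tested did so. Tested members had a median coefficient of variation of 3.47% between libraries. In the range of 1000 to 10000 reads it was 2.58% for members and 3.15% for all genes.

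**Figure D5:**
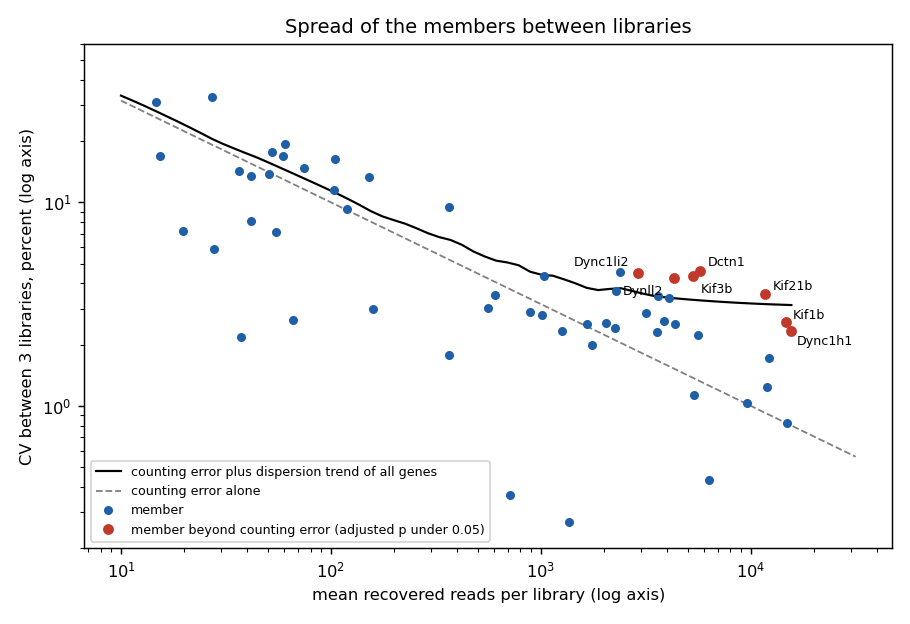
Coefficient of variation between the 3 libraries against mean recovered reads for the 57 tested members, both on log axes; the solid line adds the dispersion trend of all genes to counting error and the dashed line is counting error alone. The 7 members beyond counting error (red) have over 1000 reads and spreads of 2.3% to 4.6%.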

How the data were processed

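RNA was sequenced from 3 libraries of 1 group. FastQC, HISAT2, featureCounts, DESeq2 and GRCm38 are named in the submitters' processing notes. Their versions, roles and strand settings are not stated there. The authors deposited 1 log2 value per gene and library, shaped like a regularized log, so that low genes differ little between libraries; 21897 of 47593 rows were 0 throughout.

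To recover reads, the penalised score equation of a negative binomial model was solved backwards, with 6 parameters common to the genes. The result lay within 0.1 of an integer for 99.8% of 67797 values and for all 3 values of each of the 61 members. Solved forwards, it returned every gene to within 0.001 of the deposit (100%). The 3097 rows with 1 read were assigned by their highest library. The method was tested on simulated data. Recovered reads summed to 18780584, 18683950 and 18885652. Floors of 3 reads cover counting error only.

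Lengths were exon unions and longest coding sequences from GENCODE M21, matched by symbol for 45296 rows. No protein table was used. The variation test used median-of-ratios size factors, 2 degrees of freedom and a dispersion trend in 20 abundance bins. Named were members at 10 CPM or more, those within 3 ranks of the detection threshold or without reads, both genes of each pair, members called for variation, and the 3 highest and the undetected genes of the lists; other genes were chosen after their values were seen. Members, lists, pairs and tests were chosen with earlier results of these data known; the motifs and functional groups were set after seeing the files, when 1 list symbol was respelled and 1 absent from the files dropped. Python 3.11.15, numpy 2.4.6 and scipy 1.17.1 were used.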

Additional observations from a re-analysis of the deposited data

How the results depend on the processing

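Of 225 alternative values, 207 kept their direction or size. Members detected numbered 57 at 0.5 CPM, 50 at 2 CPM, 54 by recovered reads and 55 without any 1 replicate, against 55. Of 168 alternative pair ratios 8 turned. Without length scaling these were Kif5c over Kif5a (0.028), Kif3c over Kif3b (0.25), Kif1a over Kif5c (0.28) and Dctn1 over Dctn2 (0.028). With coding length they were Kif5c over Kif5a (0.13), Kif3c over Kif3b (0.16) and Dync1h1 over Dctn1 (−0.41). These changed with the length used. Without length scaling, Kif5c over Kif5a and Dctn1 over Dctn2 lay below their SDs of 0.031 and 0.036 in recovered reads, so their order was not settled on that scale. Leaving out 1 replicate put Kif5c over Kif5a between −0.013 and 0.0055, inside its SD.

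Per kilobase of exon the shares were 39.9% for kinesin motors outside mitosis, 33.3% for dynein, 16.3% for dynactin and 10.2% for kinesin light chains. Per kilobase of coding sequence, chosen after seeing the data, they were 27.4%, 50.01%, 16.0% and 6.45%, and 0.215% for mitotic kinesins. The dynein share on that scale leans on Dynll2, Dynll1 and Dynlrb1, whose coding sequences are short. Against counting error alone 7 members varied; against the dispersion trend 0 did, also with other scaling or read filters and without any 1 replicate. The count over all genes was 48 against the trend, and 7, 19 and 28 without replicates 1, 2 and 3. No paired analysis was possible because the labels give a single group. Depth limits the members below 1 CPM.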

Other observations

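Motors of actin and of motile cilia, which stand outside the kinesin and dynein families of transport, were present at unequal levels. Of 6 actin motors 5 were detected, led by Myo5a (454 ± 23.7 CPM), which carries endoplasmic reticulum into dendritic spines, Myo6 (75.0 ± 0.94 CPM) and Myo10 (63.4 ± 1.29 CPM), while Myo5c had 17 reads in all. All 14 genes of intraflagellar transport, the cargo trains that kinesin-2 and dynein 2 move in cilia, were detected between 11.7 and 54.0 CPM. They were led by Ift46, Ift81 and Ift172. At the same threshold 59% of all protein-coding genes were detected.

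Axonemal dynein genes, which power beating cilia, were detected in 14 of 18 cases, or 12 by recovered reads, but at a median of 1.87 CPM. The highest was Dnal1 at 69.8 ± 2.68 CPM, with Dnah5 at 7.83 ± 1.25 and Dnah7a at 5.86 ± 0.57 CPM next. Dnah3, Dnah7c, Dnah8 and Dnah11 were not detected, with 8, 53, 56 and 29 reads. Of 5 ependymal markers only Foxj1, the regulator of motile cilia, was detected, at 15.0 ± 1.39 CPM; Ccdc153, Tmem212, Rarres2 and Mia had 22, 7, 31 and 4 reads. The part of ciliated cells in the axonemal dynein levels was not tested.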
